A study of Mus musculus with 4 samples.

Results

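A group of 9 transcription factors that give limb buds their identity and pattern, outside the Hox clusters, were followed in mouse embryos mutant for nucleoredoxin. They are Pitx1, Tbx4, Tbx2, Tbx3, Shox2, Lmx1b, Meis1, Meis2 and Sall1. They were chosen by name for that role, with earlier results of these data known. These are 9 of 27669 genes named on the arrays, and all 14 of their probes were read. Of the 9, 8 were tested, and the only probe of Lmx1b was too dim. Nxn encodes nucleoredoxin, a thioredoxin-related protein, and the labels write the mutant as NRX -/- (KD in the titles) and wild type as NRX +/+. Both genotypes were C57BL/6J embryos, taken at E9.5 or E11.5 (embryonic days), and no treatment is labelled. Each of 4 two-colour arrays carried NRX -/- RNA in one dye and stage-matched NRX +/+ RNA in the second. A stage was covered by 2 arrays in opposite dye orientation, with the NRX -/- RNA in Cy5 on replicate 1 and in Cy3 on replicate 2. The sources used here give no number of embryos per RNA. The labels name no separate extracts, so p-values measure only the spread between these arrays, which may be technical. Total RNA came from embryos, so fewer cells of a type and less RNA per cell cannot be told apart.

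Limb buds grow from the flank under a dialogue between mesenchyme and the overlying ectoderm. Pitx1 marks the hindlimb field and acts upstream of Tbx4, a T-box factor of hindlimb outgrowth. The related T-box repressors Tbx2 and Tbx3 mark the anterior and posterior margins of the bud, Meis1 and Meis2 its proximal part, and Lmx1b its dorsal side. Shox2 serves the proximal skeleton, and Sall1 encodes a zinc-finger factor of distal limb, kidney and other organs. None of these genes is specific to limbs: Pitx1 is also known from the first branchial arch and pituitary, Tbx4 from the allantois and lung, Tbx2, Tbx3 and Shox2 from the heart, and Meis1 and Meis2 from the neural tube.

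Nxn was lower in the NRX -/- RNA on all 4 arrays. Its brighter probe stood at 50.4% (E9.5) and 39.8% (E11.5) of the wild-type level, which checks the direction of the ratios. Gene probes called well above background made up a share that ran from 48.2% to 70.3% over the 8 channels and was higher in the Cy5 channel of each array. Across genes, which are not independent replicates, the log2 ratios of a stage's arrays correlated at 0.48 (E9.5) and 0.26 (E11.5). Arrays of different stages correlated at 0.34 and 0.36 where the dye orientation was the same, and at -0.08 and -0.16 where it was opposite.

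Sequences upstream of 2 of the genes whose levels moved are shown, because Tbx4 differed between the genotypes at E9.5 and Shox2 rose between the stages. Each run holds the 250 bases before the annotated start in RefSeq, build GRCm38.p6, read 5′ to 3′ on the gene's strand. The Tbx4 window lies at chr11:85896515-85896764 on the plus strand and the Shox2 window at chr3:66981772-66982021 on the minus strand. Capitals mark the letters TATAA on either strand, which lie 83 and 84 bases (2 overlapping matches) before the start of Tbx4 and 203 bases before that of Shox2.
Tbx4: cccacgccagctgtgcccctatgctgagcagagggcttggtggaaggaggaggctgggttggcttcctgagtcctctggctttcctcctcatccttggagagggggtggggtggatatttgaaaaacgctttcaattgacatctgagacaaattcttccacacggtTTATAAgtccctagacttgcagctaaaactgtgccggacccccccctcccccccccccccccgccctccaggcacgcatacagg
Shox2: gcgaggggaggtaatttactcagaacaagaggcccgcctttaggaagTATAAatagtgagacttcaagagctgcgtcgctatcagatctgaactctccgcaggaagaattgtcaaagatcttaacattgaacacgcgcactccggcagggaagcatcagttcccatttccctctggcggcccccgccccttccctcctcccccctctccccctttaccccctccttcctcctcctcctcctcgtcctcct
The same 250 bases before the start held TATAA in 22.8% of the table's 32851 windows. Windows were matched for 6 of the 9 genes, 8 windows in all, and none was found for Pitx1, Tbx2 or Tbx3. The Meis2 window also held TATAA, 152 bases before its start, and the windows of Lmx1b, Meis1 and Sall1 did not. On either strand none of the 8 held a TCF/LEF match (any of the letters CTTTGAA, or CTTTGAT, or CTTTGTA, or CTTTGTT, found in 14.8% of all windows), the PITX letters TAATCC (6.25%), the T-box letters GGTGTGA (3.33%) or the MEIS letters TGACAG (15.9%), which says only that these letters were not in these windows.

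Read by the brightest probe of each gene, the hindlimb factors Pitx1 and Tbx4 were the members called lower in NRX -/- RNA at E9.5. Pitx1 fell to 45.4% of the wild-type level. Tbx2 was slightly higher, by 1.16-fold, and the other 5 tested members did not pass the test. Among these 5, dimmer probes of Meis2 (43.2% of wild type) and Meis1 (73.4%) were called lower in a fit over every probe, given below. A gene was called when its adjusted p from limma, fitted on all 4 arrays with a term for the dye and adjusted over all genes by the Benjamini-Hochberg method, was below 0.05. The 3 members called among 8 compare with 24.7% of the 17159 genes tested (9.88% higher and 14.8% lower). Of those calls, 40.1% were higher, against 28.8% with Feature Extraction's processed signals and 22.9% with median centring. The median log2 ratio of the 8 members was -0.01, against -8e-04 for all genes. The 10th and 90th percentiles of all genes were -0.24 and 0.18.

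Pitx1 was read by 1 probe (A_52_P522255), well above background in all 8 channels. Its log2 level in the NRX -/- channel at E9.5 was 11.74 on replicate 1 and 11.45 on replicate 2, against 12.48 and 12.99 in NRX +/+. The genotypes did not overlap at this stage, and both arrays had less Pitx1 in the NRX -/- channel. The log2 ratios were -0.74 and -1.54, a mean of -1.14 ± 0.57 (SD, n = 2 arrays), or 2.21-fold lower. In the limma fit this mean had an SE of 0.07 and an adjusted p of 3.86e-11, and only 0.548% of genes had a lower ratio. That SE is far smaller than the gap between the arrays, because the NRX -/- RNA read higher in Cy5 at both stages and the dye term removes a gap common to both. Without the dye term the limma adjusted p was 0.074, and without E9.5 replicate 2 the ratio was -0.74 with an adjusted p of 0.173.

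Tbx4 lies next to Tbx2 on the chromosome that also carries Nxn and Meis1, with 147 protein-coding genes between Tbx4 and Nxn in the RefSeq order. Its brighter probe (A_52_P16899) was dim. The NRX -/- level at E9.5 was 6.68 and 7.04, not well above background on either array, whereas NRX +/+ read 7.47 and 7.68 and passed on both. Tbx4 was therefore at least 1.64-fold lower in NRX -/- RNA, from log2 ratios of -0.79 and -0.64 (mean -0.72 ± 0.11, SD, n = 2 arrays), with a limma adjusted p of 4.70e-08. Such a bound sets the bright group's mean against the higher of the dim signal itself and the lowest signal well above background. Without E9.5 replicate 1 the ratio was -0.64 and the limma adjusted p 0.075, and with Feature Extraction's processed signals the ratio was -3.11. A second Tbx4 probe (A_52_P562827) was well above background in 1 of 8 channels and was left out of the fit. Its ratios at E9.5 were 0.03 and -0.23, so it gives no second reading of the fall. The brighter probe was matched to Tbx4 by symbol only, whereas this second probe was matched by its RefSeq accession.

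**Figure D1:**
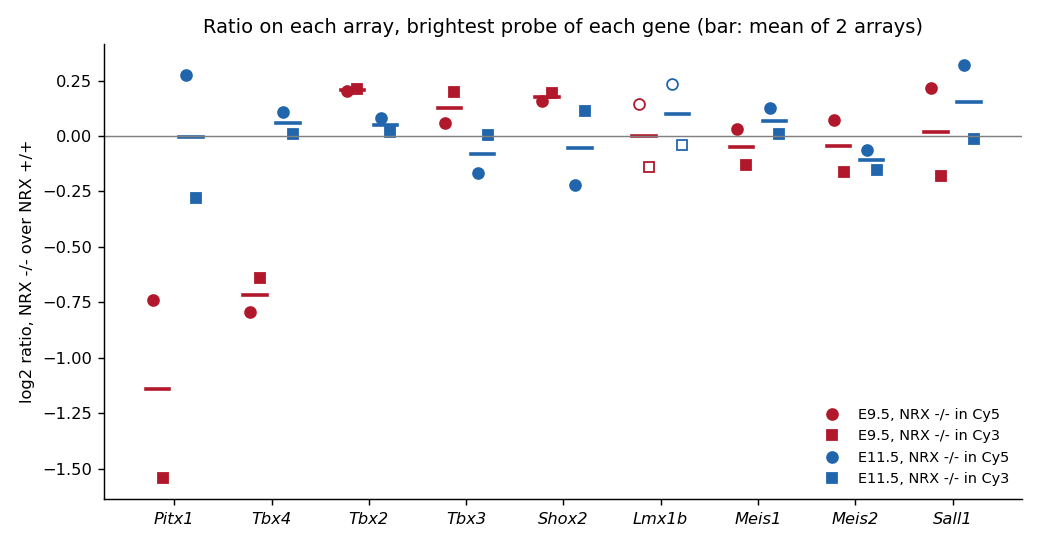
Log2 ratio of NRX -/- over NRX +/+ (vertical axis) on each array for the brightest probe of the 9 genes (horizontal axis), red for E9.5 and blue for E11.5, circles with NRX -/- in Cy5 and squares with it in Cy3; bars are means of 2 arrays and open symbols mark Lmx1b, which was not tested. Pitx1 at -0.74 and -1.54 and Tbx4 at -0.79 and -0.64 at E9.5 lie below every other point.

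At E11.5 neither hindlimb factor was lower. By its brightest probe no member was called at that stage, where 9.3% of all genes were, 39.4% of them higher (54.1% with median centring). The lowest adjusted p of the 8 members in the limma fit was 0.156, for Sall1, which alone had an unadjusted p below 0.05. Pitx1 read 13.25 and 13.07 in NRX -/- and 12.98 and 13.35 in NRX +/+, so the genotypes overlapped. Its log2 ratios of 0.27 and -0.28 had opposite signs on the dye-swapped arrays (mean -0.0034 ± 0.39, SD, n = 2 arrays). Tbx4 read 7.45 and 7.56 in NRX -/- and 7.35 and 7.55 in NRX +/+, with ratios of 0.11 and 0.01 (mean 0.06 ± 0.07). It was well above background on both NRX -/- arrays and on 1 of the 2 NRX +/+ arrays.

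The ratio of E11.5 was set against that of E9.5 within the same fit. Here 2 members were called, Pitx1 with a difference of 1.14 (SE 0.09, limma adjusted p 1.37e-08) and Tbx4 with 0.77 (SE 0.09, limma adjusted p 3.56e-06), where 13.5% of all genes were called and 8.31% were in that direction. Of the calls, 61.4% were in that direction, against 72.6% with processed signals and 80.6% with median centring. The Tbx4 value is only a lower bound on the E9.5 side, where its NRX -/- signal was not well above background. With processed signals it was 3.34 and not called (limma adjusted p 0.112). Both differences lost their call without the dye term, at limma adjusted p-values of 0.335 for Pitx1 and 0.083 for Tbx4. A fit with 1 array left out has no dye term either. Leaving out 1 array ended the Tbx4 call in each of 4 cases (adjusted p from 0.096 to 0.431), and that of Pitx1 without E11.5 replicate 1 (0.828), E11.5 replicate 2 (0.117) or E9.5 replicate 2 (0.443).

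**Figure D2:**
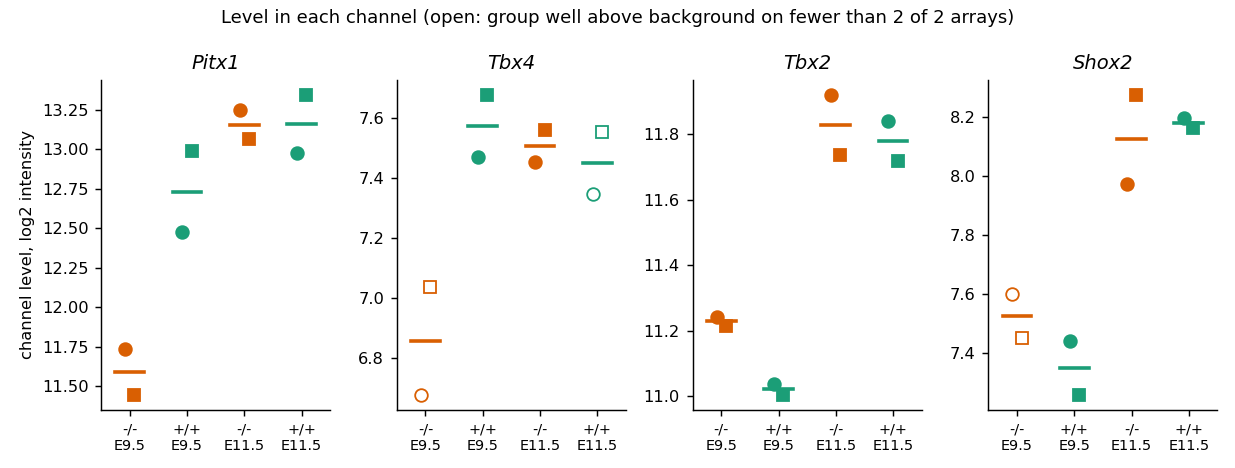
Channel level (log2 intensity, vertical axis, a separate scale for each gene) of Pitx1, Tbx4, Tbx2 and Shox2 by genotype and stage; circles are replicate 1, squares replicate 2, bars their mean, and open symbols a group that was well above background on fewer than 2 of its 2 arrays. Pitx1 in NRX -/- at E9.5, at 11.74 and 11.45, lies apart from the 6 other channels, and Tbx2 and Shox2 are higher at E11.5 than at E9.5 in both genotypes.

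Other tissues moved in the same E9.5 RNAs. All 10 yolk sac endoderm markers were lower in NRX -/- at E9.5 (log2 ratios from -4.25 to -0.90), and their summed level, as log2 intensity, was 13.86 to 14.18 in NRX -/- and 17.30 on both NRX +/+ arrays. At E11.5 the sums were 16.24 to 16.26 and 16.24 to 16.37, and 2 markers were lower. All 9 heart muscle markers tested were lower at E9.5, with sums of 15.02 to 15.24 against 16.87 to 16.88, and 2 were higher at E11.5 (16.49 to 16.51 against 16.42 to 16.45). Of 10 primitive red cell markers, 9 were lower at E9.5 (17.76 to 17.99 against 18.61 to 18.80) and 9 at E11.5 (17.92 to 18.35 against 19.33 to 19.44). Of 10 neuron markers, 9 were higher at E9.5 (15.37 on both arrays against 14.995 to 15.02) and none was called at E11.5 (16.26 to 16.32 against 16.22 to 16.30). Every one of these 39 markers was well above background on at least 1 array of each group, other than Apoa4 at E11.5. In the placenta and decidua list, 4 of 5 tested genes were higher in NRX -/- at E9.5, among them Prl3d2 (1.41) and Prl3d1 (1.06), and Phlda2 was lower (-2.20). A further gene of the 4, Prl8a2, was not well above background on either NRX +/+ array. The list's sums were 11.47 to 11.63 against 11.66 to 12.004, and at E11.5, with 1 gene lower, 10.27 to 10.29 against 10.17 to 10.37. Of 5 skeletal muscle markers, 2 were higher and 1, Acta1 (-1.08), lower at E9.5 (11.84 to 11.94 against 12.21 to 12.25), and 1 was lower at E11.5 (13.33 to 13.36 against 13.41 to 13.48). The part of these tissues in the fall of Pitx1 and Tbx4 was not tested.

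At E11.5 the RNAs also differed in sex genes: Xist was not well above background on either NRX +/+ array, and Ddx3y, Eif2s3y and Kdm5d were not on either NRX -/- array. The genotype and this difference cannot be told apart at that stage. In the E9.5 pair the genotypes were alike in these marks: both arrays of each passed background for Xist, and neither did for Ddx3y, Eif2s3y or Kdm5d. By the same marks, sex genes changed between the stages in NRX +/+ and not in NRX -/-. Comparisons between the stages, among them the differences of the genotype ratio, therefore also carry this change. Its part in them was not tested.

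The margin factors Tbx2 and Tbx3 showed small ratios. Tbx2 (A_52_P318532) read 11.24 and 11.22 in NRX -/- against 11.04 and 11.004 in NRX +/+ at E9.5. The genotypes did not overlap, and the log2 ratios of 0.20 and 0.21 gave a mean of 0.21 ± 0.0045 (SD, n = 2 arrays, limma adjusted p 0.0188). The call was lost with Feature Extraction's processed signals (0.134), median centring (0.653), no filter (0.057), no dye term (0.367) and each array left out (0.562 to 0.865), all as limma adjusted p-values. At E11.5 its ratios were 0.08 and 0.02. Tbx3 (A_52_P183368) had ratios of 0.06 and 0.20 at E9.5, then -0.17 and 0.01 at E11.5, and neither stage passed. Its second probe was well above background in 1 of 8 channels, with ratios from -0.20 to 0.03.

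Shox2, the proximal skeletal factor, had log2 ratios of 0.16 and 0.19 at E9.5 (mean 0.18 ± 0.02, SD, n = 2 arrays, limma adjusted p 0.062). NRX -/- read 7.60 and 7.45, well above background on 1 of 2 arrays, and NRX +/+ read 7.44 and 7.26, so the genotypes lay side by side with almost no gap. The value passed at limma adjusted p-values of 0.0349 with Feature Extraction's processed signals (ratio 0.60), 0.0353 with trended and robust moderation and 0.0494 with an offset of 10 (ratio 0.24). At E11.5 the ratios were -0.22 and 0.11.

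Lmx1b, the dorsal factor, could not be tested. Its probe (A_51_P321102) was well above background in 4 of 8 channels, all of them Cy5. Its ratios were 0.14 and -0.14 at E9.5, then 0.23 and -0.04 at E11.5, higher each time on the array with NRX -/- in Cy5. Sall1 (A_52_P423574) showed the same order, with 0.22 and -0.18 at E9.5, then 0.32 and -0.02 at E11.5. Its mean at E11.5 was 0.15 ± 0.24 (SD, n = 2 arrays, limma adjusted p 0.156), and NRX +/+ passed background on 1 of 2 arrays there.

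The proximal factors Meis1 and Meis2 were each read by several probes, and these disagreed. The brightest probes were near no change: for Meis1 (A_52_P26195) the ratios were 0.03 and -0.13 at E9.5, then 0.13 and 0.01 at E11.5, and for Meis2 (A_51_P422429) 0.07 and -0.16, then -0.06 and -0.15. None of the 4 means was called. The dimmer Meis1 probe (A_52_P670612), well above background in all 8 channels, was lower on all 4 arrays, at -0.39 and -0.51 and then -0.30 and -0.24. In a limma fit over every probe its means were -0.45 ± 0.09 (SD, n = 2 arrays, adjusted p 3.18e-05) and -0.27 ± 0.04 (adjusted p 0.0104). In that fit 22.3% of 24993 probes were called at E9.5 and 8.48% at E11.5, with 13.5% and 5.31% lower. Each call was lost in 7 of the 11 other settings run: processed signals, median centring, no dye term and each array left out (limma adjusted p from 0.0693 to 0.5001 for E9.5 and 0.213 to 0.9999 for E11.5).

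The difference was larger for Meis2. A kept dimmer probe (A_52_P290211) read 9.49 and 9.64 in NRX -/- against 10.61 and 10.95 in NRX +/+ at E9.5, and 9.92 and 10.003 against 10.47 and 10.52 at E11.5. The genotypes did not overlap at either stage. Its log2 ratios were -1.11 and -1.31 in the E9.5 pair, a mean of -1.21 ± 0.14 (SD, n = 2 arrays) or 43.2% of wild type. In the E11.5 pair they were -0.55 and -0.51, a mean of -0.53 ± 0.02 or 69.3%. The limma adjusted p over every probe was 3.46e-11 for E9.5 and 1.10e-05 for E11.5. The ratio differed between the stages by 0.68 (adjusted p 2.91e-05), a term that called 11.7% of probes, 7.08% in that direction. Its fall at E9.5 was called in all 11 other settings run, from -1.33 to -1.11. The E11.5 call was lost in 7 of 11, the same 7 as for Meis1 (limma adjusted p 0.068 to 0.9999), and the difference between the stages in 6 of 11 (0.106 to 0.626). A remaining Meis2 probe (A_52_P277641) carried outlier marks on 2 arrays and was left out. On the other 2 its ratios were -0.15 at E9.5 and -0.11 at E11.5, close to the brightest probe.

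The files list all 3 Meis2 probes as Mrg1, a name that RefSeq also gives as a synonym of Cited2. Of these, 2 were tied to Meis2 by their accession, and A_52_P290211 only by the name of its RIKEN clone among the synonyms of Meis2. Probe sequences were not used here, so which transcript or strand the Meis probes read was not tested. With the mean of all kept probes in place of the brightest, Meis1 (-0.25) and Meis2 (-0.63) were called lower at E9.5, at limma adjusted p-values of 0.0108 and 4.68e-05, and Meis2 at E11.5 (-0.32, 0.008).

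**Figure D3:**
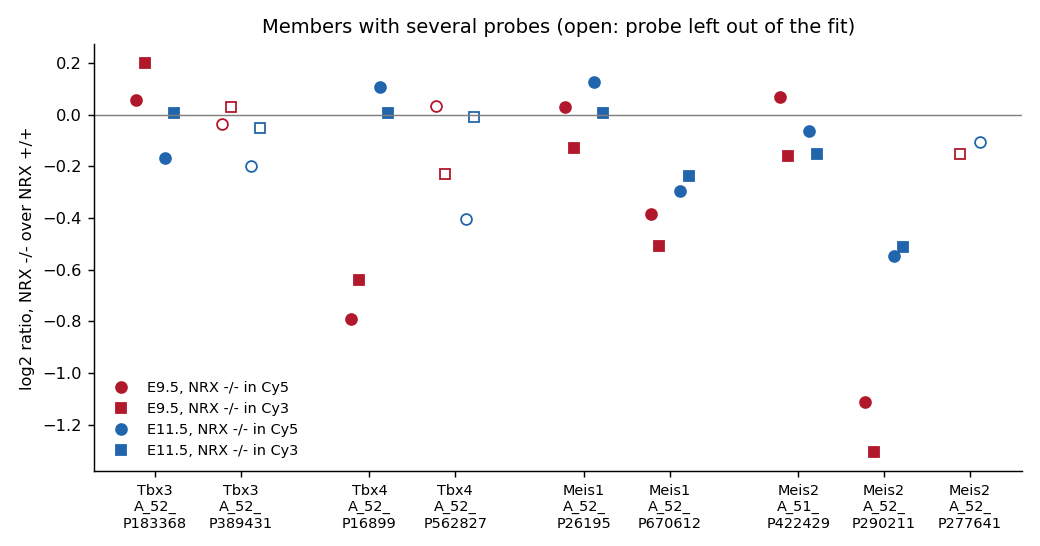
Log2 ratio of NRX -/- over NRX +/+ (vertical axis) on each array for the 9 probes of the 4 members with several probes (horizontal axis), colours for stage and symbols for dye; open symbols are probes left out of the fit. The second kept probes of Meis1 and Meis2 lie below 0 on all 4 arrays, with Meis2 at -1.11 and -1.31 at E9.5, while the brightest probes of both genes lie between -0.16 and 0.13.

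No member was called in the test of a ratio shared by both stages (limma on the 2 stage averages). The lowest adjusted p was 0.743, no member had an unadjusted p below 0.05, and 0% of the 17159 genes were called, with a lowest adjusted p of 0.395. The submitters' design text kept genes whose mean change passed 2-fold at both stages. In the normalized ratios used here no member probe did so: Pitx1 and the Meis2 probe A_52_P290211 passed it at E9.5 only. With Feature Extraction's processed signals, which the deposited ratios use, Tbx4 also passed it at E9.5, at a log2 ratio of -3.11. It did not at E11.5, where no setting run put its ratio above 0.24.

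Between E9.5 and E11.5, Tbx2 and Shox2 rose in both genotypes. The level at each stage was taken per channel, averaged over dyes within a genotype, and tested with limma with the 2 genotypes as replicates. A shift shared by both dyes of an array is not part of that error. Of 8 members, 2 were called, both higher, where 42.1% of all genes were called and 21% were higher. The members' median change was 0.24, against -0.02 for all genes.

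Tbx2 rose by 0.60 ± 0.11 in NRX -/- and 0.76 ± 0.06 in NRX +/+ (log2, SD, n = 2 dye orientations), a shared 1.60-fold with a limma adjusted p of 0.00887. Shox2 rose by 0.60 ± 0.32 and 0.83 ± 0.11, a shared 1.64-fold with a limma adjusted p of 0.0103. Its NRX -/- level went from 7.60 and 7.45 to 7.97 and 8.28, and its NRX +/+ level from 7.44 and 7.26 to 8.20 and 8.17. For both genes every E11.5 channel lay above every E9.5 channel, and the share of all genes so separated is not given here. Both rises were called in all 12 other settings run.

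Pitx1 changed by different amounts in the genotypes. Its level was 1.57 ± 0.08 higher at E11.5 in NRX -/- (2.96-fold) and 0.43 ± 0.10 higher in NRX +/+ (1.35-fold), and the shared value of 0.996 had a limma adjusted p of 0.064. That contrast between the genotypes is the difference of ratios given above, seen from the other side. For Tbx4, NRX -/- was at least 1.57-fold higher at E11.5, from 0.65 ± 0.18, whereas NRX +/+ differed by -0.12 ± 0.0031. Tbx3 differed by 0.12 and 0.33 (limma adjusted p 0.093). Without E11.5 replicate 1, Pitx1 (0.0174) and Tbx3 (0.0308) were also called, and Pitx1 without E9.5 replicate 2 (0.0223). The brightest probes of Meis1, Meis2 and Sall1 differed by -0.05 to 0.10 in either genotype, and none was called.

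**Figure D4:**
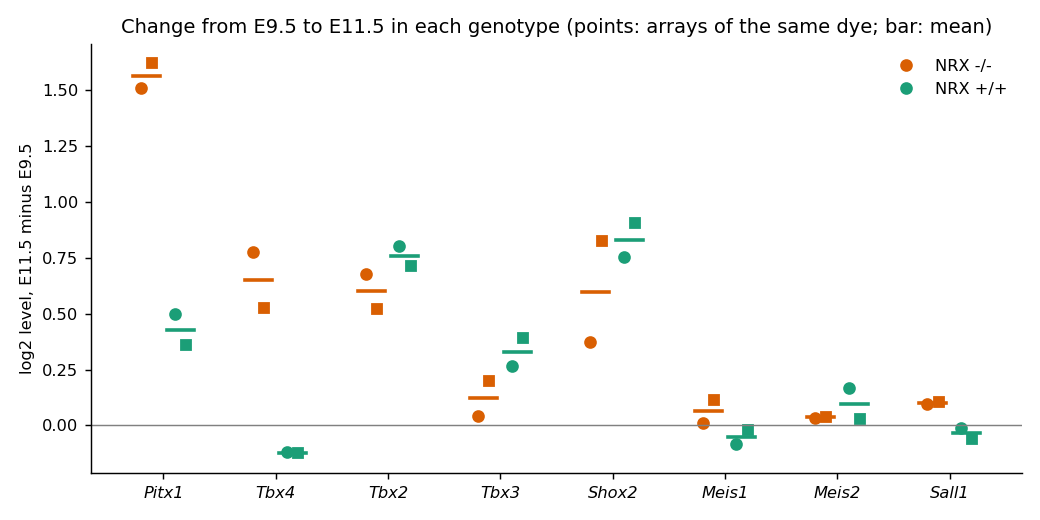
Log2 level at E11.5 minus that at E9.5 (vertical axis) for the 8 tested members (horizontal axis), orange for NRX -/- and green for NRX +/+; circles pair the replicate 1 arrays, squares the replicate 2 arrays, and bars are means. Tbx2 and Shox2 are above 0 in both genotypes, while Pitx1 is at 1.57 in NRX -/- and 0.43 in NRX +/+ and Tbx4 at 0.65 and -0.12.

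The other genes of limb development gave the setting. Of 69 listed, 63 were tested, and 14 were higher and 6 lower in NRX -/- at E9.5, with a median log2 ratio of 0.08 and a range of -0.30 to 0.47. Over all 17159 genes, 9.88% were higher and 14.8% lower at that stage. None was as low as Pitx1 or Tbx4, though the members and this list were chosen with earlier results of these data known. Among 7 genes of limb initiation and hindlimb, 0 were higher and 1 lower at E9.5. That one was Hand1 (-0.22, limma adjusted p 0.0119), while Isl1, which acts early in the hindlimb field, stood at -0.09 (0.316), Tbx5, the forelimb counterpart of Tbx4, at 0.07 (0.509) and Fgf10, the mesenchymal signal for outgrowth, at 0.05 (0.593). These 20 calls fell to 3 with Feature Extraction's processed signals, 1 with median centring, and 0 without the dye term or with any array left out.

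In the apical ridge list, 4 of 12 genes were higher and 2 lower at E9.5, where 9.88% and 14.8% of all genes were. The highest were Msx2, a homeobox effector of BMP signals (0.47 ± 0.07, SD, n = 2 arrays, limma adjusted p 8.39e-06), and the homeobox genes Dlx1 (0.36 ± 0.17, 2.25e-04) and Dlx5 (0.36 ± 0.0079, 2.20e-04). In the anterior-posterior list, 4 of 16 were higher and 2 lower, with Alx1, an aristaless-type homeobox gene, at 0.31 ± 0.23 (limma adjusted p 9.35e-04). The proximal list had 2 higher and 1 lower of 10, the dorsoventral list 1 higher of 4, and the mesenchyme list 3 higher of 15.

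At E11.5, 6 of the 63 were higher and 4 lower, with a median of 0.02, where 9.3% of all genes were called. Etv4, a target of FGF signals, was at 0.61 ± 0.10 (SD, n = 2 arrays, limma adjusted p 2.03e-06) and the ridge signal Fgf8 at 0.32 ± 0.13 (0.00234). The zinc-finger gene Sall4 was at 0.30 ± 0.18 (0.00877), and Sox9, which starts cartilage formation, at -0.26 ± 0.13 (0.0117). Sox9 had been called higher at E9.5 (0.29, limma adjusted p 0.00197). The E11.5 calls of Sall4 and of Sox9 were each kept in 3 of 13 other settings run. Between the stages, 9 of the 63 differed, where 13.5% of all genes did, and 0 passed the shared test, as for all genes (0%). These 10 calls at E11.5 fell to 0 with processed signals or no dye term and to 1 with median centring. With any array left out they fell to between 0 and 1. The 9 between the stages fell to 0 with processed signals, median centring, no dye term or any array left out.

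**Figure D5:**
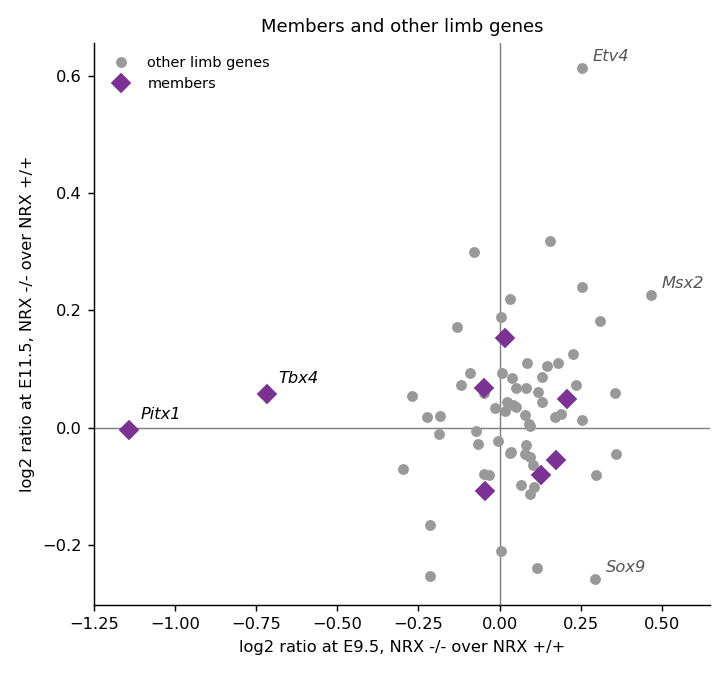
Mean log2 ratio of NRX -/- over NRX +/+ at E9.5 (horizontal axis) and at E11.5 (vertical axis), each the mean of 2 arrays, for the 8 tested members (purple diamonds, brightest probe) and the 63 other limb genes tested (grey circles). Pitx1 and Tbx4 lie to the left of all others on the E9.5 axis and near 0 on the E11.5 axis.

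With stage, 20 of the 63 rose and 16 fell, a total of 36 calls that became 22 without E11.5 replicate 2 and 24 without E9.5 replicate 1. Of all genes, 42.1% were called by this test and 21% were higher. In the mesenchyme list, 9 of 15 rose and 1 fell: Hic1 by 3.28, Osr1 by 1.58 and Prrx1 by 0.66 on the log2 scale rose, and Sall4 fell by 1.93. Tbx15 rose by 1.15 and Tbx5 by 0.85, beside the rises of Tbx2 and Shox2. Among signals, Fgf8 fell by 1.39 and Shh by 0.93, and Hand1 fell by 0.98. All of these had limma adjusted p-values below the threshold, from 0.00515 for Hic1 to 0.0118 for Prrx1.

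For the 5 members well above background in all 8 channels, the genes with the likest levels over those channels were named, among 13416 genes. Pitx1 was most like Proc (Pearson r 0.988) and Pde9a (0.986). Tbx2 was most like Mxi1 and Cdh22 (both 0.998), and Tbx3 like Kat2b (0.981) and Casp6 (0.979). The range of the member's own levels was 1.90 for Pitx1, 0.92 for Tbx2 and 0.40 for Tbx3. For Meis1 it was 0.19, with Cdadc1 first (0.956), and for Meis2 0.20, with Vegfa first (0.940). The 8 channels share 4 arrays and pair both genotypes on each, so these values are a description.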

How the data were processed

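Total RNA of embryos was labelled after linear amplification from an oligo-dT primer, per the labels' protocols, and hybridised to Agilent whole mouse genome arrays. The scanner files deposited by the authors hold linear spot intensity for each dye with its background, and processed signals, written by Agilent Feature Extraction (9.1.3.1 per the file headers, 9.5.3.1 per the submitters' processing notes). The deposited value table holds log10 ratios: 99.995% to 100% of its values equalled log10 of the processed red over green signals within 1e-04 over 40929 probes, once turned to run as NRX -/- over NRX +/+. Its column medians were -0.0136, 0.0408, -0.0347 and 0.0210.

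Mean intensities were corrected by normexp (offset 50), normalized by loess within arrays, and Aquantile for single channels, in limma 3.58.1 under R 4.3.3. Probes with outlier marks on at least 1 array that left no unmarked spot (293 of 41174) were left out. Of the rest, 24993 were kept, which one genotype or the other showed well above background on both arrays of either stage. The brightest probe represented its gene. Names came from a RefSeq table (GRCm38.p6): 22951 probes matched by accession, 1 by clone, 6659 by current and 3109 by older symbol, and 8454 kept the file's name. Of 14 member probes, 10 were kept, 3 were too dim and 1 had outlier marks. The shared fit had 2.85 prior degrees of freedom. The fit of the genotype ratio at each stage had 1 residual degree of freedom and 18.4 prior degrees. Its error is how far the gap between dye-swapped arrays differs between the stages. It compares the RNAs hybridised. Moderated SEs are drawn towards the spread of all genes. The number of arrays limits precision. Code was tested on simulated data.

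The members and gene lists were chosen with earlier results of these data known. Named were all members, Nxn, the 4 called limb genes with the largest ratio per stage, and the 2 likest genes per member; further limb genes named were chosen after their values were seen. Alternatives covered background correction, normalization, filters, probe choice, moderation, the dye term and each array left out. Figures used matplotlib.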

Additional observations from a re-analysis of the deposited data

Results flagged for a closer look

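The genotype ratio of 3 member probes differed between E9.5 and E11.5 by the interaction term of the limma fit. For Pitx1 the log2 ratio was 1.14 higher at E11.5 than at E9.5, for Tbx4 at least 0.77 higher (3.34 with Feature Extraction's processed signals, limma adjusted p 0.112), its E9.5 NRX -/- signal being not well above background, and for the Meis2 probe A_52_P290211 0.68 higher. In each case the NRX -/- RNA was lower on both E9.5 arrays, and for the Meis2 probe also on both E11.5 arrays. Over all genes the same term called 13.5%, and over every probe 11.7%. Sex genes also changed between the stages in NRX +/+ only, as given above, and the part of that change in these differences was not tested. No fit with an array left out carries the dye term. With all 4 arrays but without that term, all 3 calls were lost, at limma adjusted p-values of 0.335, 0.083 and 0.145. With an array left out they were lost in 3 of 4, 4 of 4 and 4 of 4 cases.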

How the results depend on the processing

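Over the 8 tested members, 454 values kept their direction and side of the threshold, 30 uncalled values changed sign, 21 lost a call, 9 gained one and 1 reversed: the Meis2 difference between the stages, -0.06 with the brightest probe, was 0.31 with the mean of all kept probes (limma adjusted p 0.039). That mean raised the members called from 3 to 5 at E9.5 and from 0 to 1 at E11.5. Most of the 454 values belong to results that were not called in the main fit. The 21 losses all fell on the few results that were, those of Pitx1, Tbx2 and Tbx4. Dropping the dye term, which is the replicate block of this design, left 1 member called at E9.5 and 0 for the difference between stages. That difference had 1 of its 2 members left with Feature Extraction's processed signals and 1 with both channels above background. Under the latter filter Tbx4 was too dim to be tested at all. With 1 array left out at a time, 1 to 2 members were called at E9.5, 0 at E11.5, 0 to 1 for the difference and 2 to 4 for the stage level. Such a fit for a stage has no dye term.

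Counts over all genes moved far more. At E9.5, 4230 genes became 1418 with processed signals, 678 with median centring, 457 without the dye term and 264 to 474 with an array left out. At E11.5, 1596 became 45, 220, 28 and 16 to 144, and the difference went from 2323 to 470, 402, 149 and 104 to 221. The shared ratio had 0 genes, 45 with 4 separate arrays and no block and 1 with the block. The stage level had 7216, 4776 with processed signals and 4845 to 6888 with an array left out. Each scaling moved the median of all genes by less than 0.1. A scan-date block was not run because all files carry 1 scan time. Signal over background limits Tbx4, Lmx1b, Shox2 and Sall1, and 2 arrays per stage limit every ratio.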
